A study of Mus musculus with 6 samples.

Results

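Aminoacyl-tRNA synthetases are the enzymes that join each amino acid to its transfer RNA. Their mRNAs were examined in mouse T helper 17 (Th17) cells differentiated in culture, with and without RTF1, a nuclear factor that works with the PAF1 complex on transcribed genes. Members were all genes of the count table whose symbol names a synthetase, 38 of the 31017 genes listed, and each of the 38 passed the filter on low counts that kept 14268 genes. By symbol, 21 encode cytosolic enzymes and 17 mitochondrial ones (names ending in 2, except Tarsl2, which is a second cytosolic threonine enzyme). The study sequenced RNA of 3 control libraries, labelled wild type, and 3 RTF1-deficient libraries, labelled KO. The labels give neither the allele or method of the deletion nor the strain or age of the mice. They also do not say whether the replicates came from separate animals, so the spread between replicates may be partly technical.

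Charged tRNAs carry amino acids to the ribosome, and each synthetase must recognise both its amino acid and its own set of tRNAs. Cells keep one set of these enzymes in the cytosol and another, also encoded in the nucleus, for the ribosomes inside mitochondria. Class I and class II synthetases have unrelated catalytic folds. In mammals several cytosolic enzymes are held together in a multi-synthetase complex by small scaffold proteins. When uncharged tRNA accumulates, the kinase GCN2 phosphorylates translation factor eIF2, which raises translation of the transcription factor ATF4, and many cytosolic synthetase genes are known ATF4 targets. Activated T cells need these enzymes for the protein synthesis that accompanies growth and division.

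Libraries held 16489813 to 51271226 counts, of which the 37 synthetase genes other than Lars2 took 59712 to 303548. Values are given as CPM (counts scaled to a common library size with TMM factors) in control replicates 1, 2 and 3 and then in KO replicates 1, 2 and 3, and log2 fold changes (KO minus control) are from edgeR with their standard error (SE). Rtf1, the targeted gene, stood at 94.0, 91.2 and 88.3 CPM in control and at 45.3, 30.4 and 26.2 CPM in KO (log2 fold change −1.42, SE 0.191, adjusted p = 0.000755). It was thus reduced in each KO library and still present, most in KO replicate 1. The 7 T cell and Th17 markers were all tested and summed to 2494 to 3053 CPM in control and 1564 to 2024 CPM in KO. The 3 B cell markers summed to at most 2.32 CPM in any library and the 3 myeloid markers to 0.268 to 0.618 CPM in control and 0.908 to 3.11 CPM in KO, and the NK cell marker Ncr1 was at 0 in all. The 3 CD8 and NK cell markers summed to 6.87 to 10.5 CPM in control and 5.39 to 9.61 CPM in KO, and the part of other cells in the results was not tested. Replicate 3 of both groups differed in sex from the rest by their counts, with 11376 (control) and 5147 (KO) counts over 4 Y-linked genes against 1 to 3 elsewhere, so numbers of called members are also given without that pair.

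Most cytosolic synthetase mRNAs were lower in RTF1-deficient cells. Of 21 cytosolic genes, 15 were called lower and none higher at an adjusted p under 0.05, where 22.9% of all tested genes were called lower and 23.2% higher. The median log2 fold change was −1.10 for the 21 genes and 0.013 for all tested genes. The 12 mRNAs that fell at least 2-fold were those for threonine (Tarsl2), valine, aspartate, isoleucine, leucine, serine, tyrosine, cysteine, glutamate and proline (Eprs, one protein with both activities), methionine, phenylalanine (the beta subunit) and glycine. Across all tested genes 11.0% met that condition. Smaller decreases were those of Nars, Tars and Aars, for asparagine, threonine and alanine. Hars, Kars, Rars, Wars, Farsa and Qars, for histidine, lysine, arginine, tryptophan, phenylalanine (the alpha subunit) and glutamine, were not called. The summed level of the 21 mRNAs was 5107, 5694 and 4706 CPM in control and 3155, 2746 and 2671 CPM in KO, or 0.553 of the control mean. With the libraries numbered 1 and 2 alone 16 cytosolic genes were called lower. In bulk RNA, fewer cells of a type and less RNA per cell cannot be told apart.

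**Figure D1:**
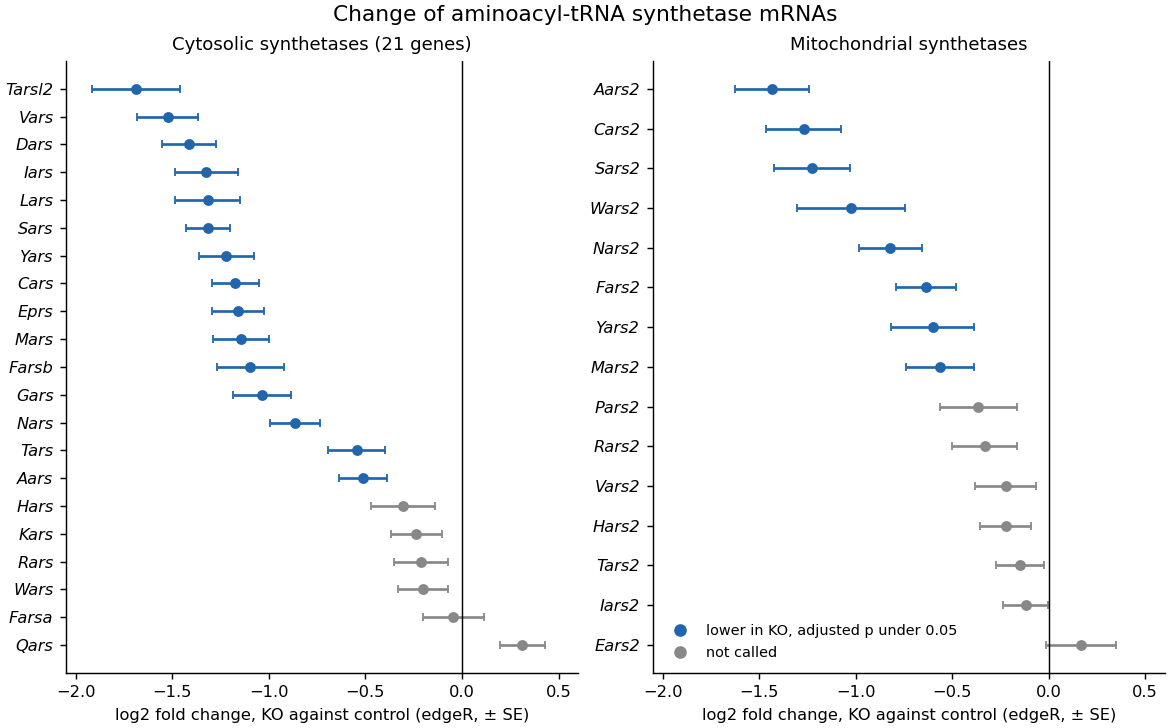
Log2 fold change of KO against control with its standard error for synthetase genes, cytosolic on the left and mitochondrial on the right, ordered by size; blue marks genes called lower at an adjusted p under 0.05 and grey genes that were not called. Of the 21 cytosolic genes 15 are blue, and of the 15 mitochondrial genes drawn 8 are blue; none was called higher.

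The 5 largest decreases among cytosolic members were those of Tarsl2, Vars, Dars, Iars and Lars. Tarsl2, a second cytosolic threonyl-tRNA synthetase and the least abundant cytosolic member per kilobase, was at 25.4, 26.0 and 26.3 CPM in control and 11.2, 6.68 and 6.20 CPM in KO. Every KO library lay far below the lowest control library. The log2 fold change was −1.69 (SE 0.228, adjusted p = 0.00077).

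Vars charges the valine tRNA and is the synthetase that binds elongation factor 1. It was at 314, 334 and 359.9 CPM in control and 145, 106 and 99.4 CPM in KO (log2 fold change −1.52, SE 0.159, adjusted p = 0.000274). The groups lay far apart, and the highest KO library was again replicate 1. Dars, the aspartate enzyme, was at 220.3, 265 and 287 CPM in control and 107, 98.2 and 84.9 CPM in KO (−1.41, SE 0.142, adjusted p = 0.000243). Iars, the isoleucine enzyme, was at 431, 417 and 363 CPM in control and 199.8, 143 and 141 CPM in KO (−1.32, SE 0.163, adjusted p = 0.00053). Of the 50-base stretches of Iars transcripts, 7.15% also occur in another gene, mainly Gm4849. Lars, the leucine enzyme, which also serves as a leucine sensor for mTORC1, was at 294, 321 and 229 CPM in control and 134, 103 and 101 CPM in KO (−1.32, SE 0.167, adjusted p = 0.000601). In all of these genes, which were picked by the size of their decrease, the groups did not overlap. Across all tested genes 28.0% had every KO library below every control library.

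The next decreases were close to one another in size. Sars, for serine, had a log2 fold change of −1.31, Yars, for tyrosine, −1.22, Cars, for cysteine, −1.17, Eprs −1.16 and Mars, for methionine, −1.15, with SE from 0.113 to 0.147. Eprs stood at 490.1, 526 and 504 CPM in control and at 265, 212 and 203 CPM in KO. Its control mean was the highest of the cytosolic members in CPM but ranked 16 of 21 per kilobase of exons. Sars had the smallest adjusted p of all members, 0.000136, with 341, 387 and 354 CPM in control and 150.0, 148 and 137 CPM in KO. Gars is 1 gene that gives both the cytosolic and the mitochondrial glycine enzyme. It was at 455, 554 and 391 CPM in control and 247, 224 and 213 CPM in KO (−1.03, SE 0.150, adjusted p = 0.00105), with no overlap. Nars was at 405, 447 and 354 CPM in control and 241, 214 and 208 CPM in KO (−0.86, adjusted p = 0.00123).

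Tars and Aars showed the smallest decreases that were called. Tars, the main cytosolic threonine enzyme, was at 227, 265 and 182 CPM in control and 164, 151 and 147 CPM in KO (log2 fold change −0.54, SE 0.148, adjusted p = 0.0159). Aars was at 323, 361 and 279.8 CPM in control and 231, 219 and 226 CPM in KO (−0.51, SE 0.125, adjusted p = 0.0102). Both kept separate groups, but Tars lost its call without KO replicate 2 (adjusted p = 0.0635) or KO replicate 3 (adjusted p = 0.0568), and Aars lost it without KO replicate 2 (adjusted p = 0.0525). Some 15.1% of the exonic bases of Aars overlap another annotated gene, chiefly Exosc6, so part of its counts is uncertain.

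Promoter sequences are shown because many cytosolic synthetase genes are known ATF4 targets and most of them were lower together. ATF4, paired with a C/EBP protein, binds an element whose core is written here as TGATGNAA, searched on both strands. RefSeq windows (assembly GRCm38.p6, 250 bases before to 50 after the start) matched 28 of the 38 members, 14 in each compartment. Of the cytosolic 14, the core was found in 5, Aars, Gars, Iars, Tars and Yars, and all of these were called lower. It was found in none of the 13 mitochondrial windows other than that of Lars2, nor in the Lars2 window. Of all 32851 promoter windows 3.97% hold the core, and of the 10398 tested genes with a window 2.82% hold it in at least 1. Of the other 9 cytosolic genes with a window, 6 were called lower as well, and a match describes the letters only. The stretches below run 5′ to 3′ on the gene's strand from 120 bases before to 30 bases after the RefSeq start, with matches in capitals; Qars, not lower and without a match, is shown beside the 5.
Aars, chr8:111033722-111033871, plus strand: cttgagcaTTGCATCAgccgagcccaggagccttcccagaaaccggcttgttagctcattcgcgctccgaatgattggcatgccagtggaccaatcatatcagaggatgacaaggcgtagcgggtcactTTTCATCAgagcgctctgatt
Gars, chr6:55037881-55038030, plus strand: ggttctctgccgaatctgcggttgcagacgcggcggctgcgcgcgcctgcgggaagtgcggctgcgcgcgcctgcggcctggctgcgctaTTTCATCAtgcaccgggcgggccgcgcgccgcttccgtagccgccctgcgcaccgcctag
Iars, chr13:49682010-49682159, plus strand: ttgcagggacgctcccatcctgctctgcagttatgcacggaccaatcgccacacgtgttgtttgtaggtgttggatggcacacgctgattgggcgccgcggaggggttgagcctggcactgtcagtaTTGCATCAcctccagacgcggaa
Tars, chr15:11399629-11399778, minus strand: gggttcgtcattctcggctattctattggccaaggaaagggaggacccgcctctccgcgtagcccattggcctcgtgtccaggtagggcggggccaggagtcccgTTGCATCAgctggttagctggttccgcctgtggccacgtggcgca
Yars, chr4:129189783-129189932, plus strand: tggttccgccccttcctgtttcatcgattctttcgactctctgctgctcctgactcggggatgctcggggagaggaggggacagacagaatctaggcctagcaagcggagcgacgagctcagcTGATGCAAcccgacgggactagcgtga
Qars, chr9:108507885-108508034, plus strand: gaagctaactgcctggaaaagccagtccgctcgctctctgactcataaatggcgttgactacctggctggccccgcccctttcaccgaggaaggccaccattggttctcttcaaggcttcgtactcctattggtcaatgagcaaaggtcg
In Iars and Yars the match began at base 8 and base 4 after the start, in Tars and Gars at base −15 and base −30. Aars had a match at −112 and another at 10. The log2 fold changes of these 5 genes were −0.51 (Aars), −1.03 (Gars), −1.32 (Iars), −0.54 (Tars) and −1.22 (Yars), so matched genes were among both the larger and the smaller decreases. No match was found in the windows of Tarsl2, Dars, Sars, Eprs, Mars and Farsb, which were lower too.

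The 8 synthetases of the multi-synthetase complex did not change as a block. Dars, Iars, Lars, Eprs and Mars were called lower, while Kars, Rars and Qars were not called. Kars, 1 gene for the cytosolic and the mitochondrial lysine enzyme, was at 249.9, 289 and 222 CPM in control and 234, 206 and 207 CPM in KO, with overlapping groups (log2 fold change −0.24, SE 0.132, adjusted p = 0.171). Rars, for arginine, was at 155, 184 and 133 CPM in control and 148, 133 and 126 CPM in KO (−0.21, SE 0.140, adjusted p = 0.242). Qars, for glutamine, was at 167, 202 and 179.7 CPM in control and 222, 238 and 222 CPM in KO. Every KO library of Qars was above every control library, the only cytosolic member of which this held (29.9% of tested genes had it). The log2 fold change of 0.31 (SE 0.115) missed the threshold with an adjusted p of 0.0515. Qars passed it with the replicate number as a block (0.32, adjusted p = 0.0264), when scaled by library size alone (0.40, adjusted p = 0.016) and without control replicate 2 (0.38, adjusted p = 0.0314). In 10 of 15 alternative fits Qars was not called. Among these were the DESeq2 test (0.29, adjusted p = 0.147) and the fit without control replicate 1 (0.18, adjusted p = 0.374). The median log2 fold change was −1.15 for the 8 genes of the complex and −1.03 for the 13 cytosolic genes outside it. Of the 8 genes 5 were called lower and of the 13 genes 10, where 22.9% of all tested genes were called lower.

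The scaffold genes of the complex also differed from one another. Aimp2 was at 26.9, 31.6 and 19.3 CPM in control and 16.3, 13.8 and 13.2 CPM in KO (log2 fold change −0.84, SE 0.198, adjusted p = 0.00849). Eef1e1 was at 72.6, 84.2 and 60.3 CPM in control and 51.9, 39.1 and 41.3 CPM in KO (−0.72, SE 0.161, adjusted p = 0.00714). Both had separate groups. Aimp1 overlapped, with 88.2, 105 and 104 CPM in control and 84.6, 89.1 and 82.7 CPM in KO (−0.21, adjusted p = 0.143).

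Phenylalanyl-tRNA synthetase is built from an alpha and a beta subunit, and the mRNAs of the 2 subunits differed in their response. Farsb, the beta subunit, was at 149, 162 and 134 CPM in control and 87.1, 67.0 and 53.8 CPM in KO (log2 fold change −1.10, SE 0.175, adjusted p = 0.00156). Farsa, the alpha subunit, was at 97.0, 100.3 and 70.0 CPM in control and 95.5, 76.5 and 87.0 CPM in KO (−0.045, SE 0.157, adjusted p = 0.833), a direction that reversed when libraries were scaled by size alone (0.042), without control replicate 2 (0.038) and without KO replicate 2 (0.039). Within a library the ratio of Farsa to Farsb does not depend on the scaling. In CPM, which is not divided by exon length, it was 0.653, 0.619 and 0.522 in control and 1.10, 1.14 and 1.62 in KO. Each KO library was thus above each control library. Per kilobase of exons, mean Farsa was below mean Farsb in control (19.6 against 56.6 CPM) and in KO (19.0 against 26.5 CPM). The mean log2 ratio was 1.09 higher in KO (two-sided p = 0.1 by an exact permutation test, and 3 libraries against 3 can give no smaller p). Of the exonic bases of Farsb 9.47% overlap Sgpp2.

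Wars and Hars were the remaining cytosolic genes that were not called. Wars, the tryptophan enzyme and a known interferon-induced gene, was at 107, 113 and 89.5 CPM in control and 97.6, 79.8 and 91.5 CPM in KO (log2 fold change −0.20, SE 0.130, adjusted p = 0.225). Its groups overlapped; without control replicate 3 it was called lower (−0.36, adjusted p = 0.049). Hars was at 148, 168 and 106 CPM in control and 124, 109 and 108 CPM in KO (−0.31, SE 0.166, adjusted p = 0.16). Control replicate 3 was the lowest of all 6 libraries, and without it Hars was called lower (−0.53, adjusted p = 0.00927), as it was with the libraries numbered 1 and 2 (−0.44, adjusted p = 0.0246).

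**Figure D2:**
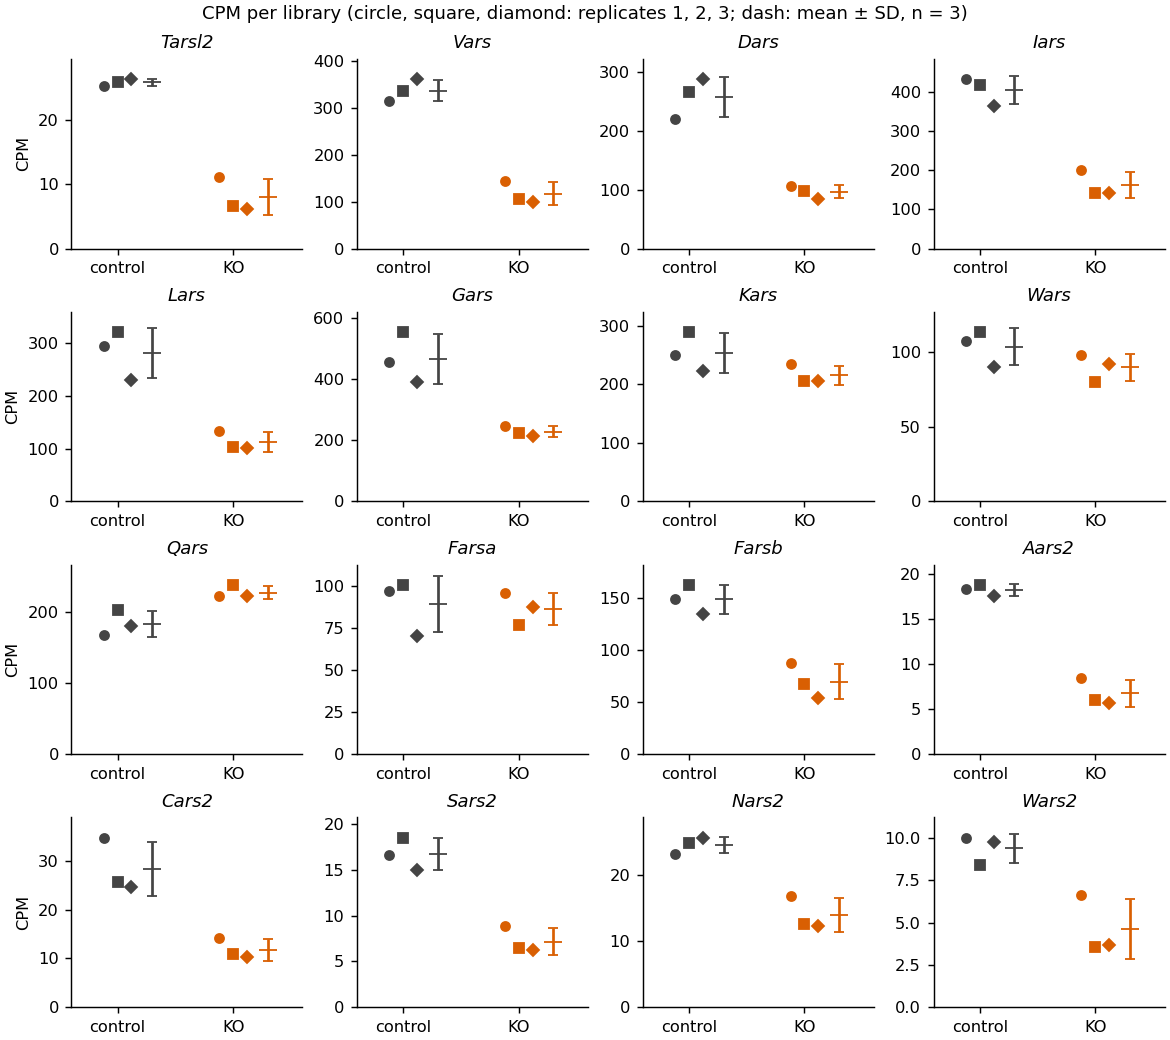
CPM in each library (circle, square and diamond for replicates 1, 2 and 3; dash with bar for mean and SD, n = 3) for 16 synthetase genes, control in dark grey and KO in orange, each axis from 0. Dars, Iars and Farsb fall apart into separate groups, Kars, Wars and Farsa overlap, and Qars is higher in all 3 KO libraries.

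Of the mitochondrial synthetases, those for alanine, cysteine, serine and tryptophan fell at least 2-fold. Lars2 is described apart because a repeat-like stretch may set its counts, which varied widely within groups. Of the other 16 genes, 9 were called lower and none higher (22.9% of tested genes were called lower), with a median log2 fold change of −0.58. Their summed level was 524, 570.4 and 502 CPM in control and 425, 409 and 364 CPM in KO, or 0.751 of the control mean. The 7 genes not called were those for proline, arginine, valine, histidine, threonine, isoleucine and glutamate. The number called was 9 with the libraries numbered 1 and 2 alone and 10 with the replicate block, which added Rars2 (−0.34, adjusted p = 0.0409). It was 5 without KO replicate 2 and 6 without KO replicate 3.

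The largest decreases in this group were those of Aars2, Cars2, Sars2 and Wars2. Aars2, for alanine, was at 18.4, 18.8 and 17.6 CPM in control and 8.50, 6.06 and 5.69 CPM in KO (log2 fold change −1.43, SE 0.192, adjusted p = 0.000743). The cytosolic alanine gene Aars fell far less, by 0.51 on the log2 scale. Cars2, for cysteine, was at 34.8, 25.7 and 24.7 CPM in control and 14.2, 10.8 and 10.2 CPM in KO (−1.27, SE 0.195, adjusted p = 0.00132). Sars2, for serine, was at 16.7, 18.5 and 15.0 CPM in control and 8.85, 6.41 and 6.20 CPM in KO (−1.23, SE 0.195, adjusted p = 0.00156). Each of these had separate groups, with KO replicate 1 the highest KO library.

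Wars2, for tryptophan, was low, with 10.03, 8.44 and 9.76 CPM in control and 6.64, 3.55 and 3.66 CPM in KO (log2 fold change −1.02, SE 0.279, adjusted p = 0.0159). The groups were separate here too. Wars2 lost its call without KO replicate 2 (adjusted p = 0.0664) or KO replicate 3 (adjusted p = 0.0541).

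Nars2, for asparagine, was at 23.2, 24.8 and 25.7 CPM in control and 16.9, 12.5 and 12.4 CPM in KO, with separate groups (log2 fold change −0.82, SE 0.163, adjusted p = 0.00397). Smaller mitochondrial decreases were those of Fars2 (log2 fold change −0.63, adjusted p = 0.0103), Yars2 (−0.60, adjusted p = 0.0469) and Mars2 (−0.56, adjusted p = 0.0276). Fars2 lost its call without KO replicate 2 (adjusted p = 0.0516). Yars2 and Mars2 were close to the threshold and lost their calls without control replicate 1 or 2 or KO replicate 2 or 3, and when scaled by size alone (adjusted p = 0.0801 and 0.0566). Yars2 was the only called member whose groups overlapped, with 19.0 CPM in control replicate 3 and 19.0 CPM in KO replicate 1.

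Iars2, the most abundant of these 16 per kilobase, was at 129, 152 and 126 CPM in control and 128, 131 and 116 CPM in KO (log2 fold change −0.12, SE 0.117, adjusted p = 0.431). It overlapped between groups, and 24.2% of its exonic bases overlap other genes, 2010103J01Rik and Rab3gap2. Tars2 (−0.15, adjusted p = 0.344), Hars2 (−0.22, adjusted p = 0.195) and Vars2 (−0.22, adjusted p = 0.27) were likewise not called. Ears2, which charges glutamate and in mitochondria also starts the route to charged glutamine tRNA, was the only one of the 16 with a positive value, at 9.73, 11.4 and 9.76 CPM in control and 9.83, 11.5 and 13.4 CPM in KO (0.17, SE 0.181, adjusted p = 0.476). Hars and Hars2 lie head to head on chromosome 18 and share exonic bases, 7.97% of Hars and 4.56% of Hars2.

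Ratios of cytosolic to mitochondrial mRNA for the same amino acid were taken within each library, where scaling cancels. Among 17 such pairs, 8 ratios were lower in every KO library than in every control library, 3 were higher and 6 overlapped. For single genes 57.9% of those tested had groups that did not overlap, 28.0% with KO below and 29.9% with KO above. No such share was computed for ratios, and Eprs and Fars2 each recur among the pairs, so these counts only describe the pairs. The largest declines were those of Eprs to Ears2, Vars to Vars2 and Iars to Iars2. The Vars to Vars2 ratio was 14.3, 16.2 and 12.7 in control and 7.60, 5.13 and 4.72 in KO, a mean log2 difference of −1.33. The Iars to Iars2 ratio was 3.35, 2.73 and 2.87 in control and 1.56, 1.09 and 1.21 in KO (−1.22). In these pairs the cytosolic mRNA fell and the mitochondrial one was not called.

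The opposite was found for alanine and tryptophan, and for phenylalanine with the alpha subunit. The Aars to Aars2 ratio was 17.6, 19.2 and 15.9 in control and 27.1, 36.1 and 39.8 in KO (mean log2 difference 0.95). The Wars to Wars2 ratio was 10.7, 13.4 and 9.17 in control and 14.7, 22.5 and 25.0 in KO (0.88). Here the mitochondrial partner had the larger decrease. For cysteine, serine and asparagine both partners fell and the ratios overlapped, with differences of 0.10, −0.073 and −0.026.

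Ratios within the cytosol also shifted. Relative to Tarsl2, Tars stood at 8.96, 10.2 and 6.90 in control and 14.6, 22.6 and 23.7 in KO. Qars was compared with 3 other enzymes of the multi-synthetase complex, pairs chosen after their values were seen. The Qars to Dars ratio was 0.758, 0.762 and 0.626 in control and 2.08, 2.43 and 2.61 in KO, so the order of these 2 mRNAs turned over in CPM. In all 22 pairs the exact permutation p was at least 0.1, the smallest possible here, and 0.138 at best after Benjamini-Hochberg adjustment, so none can pass 0.05 in this design.

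**Figure D3:**
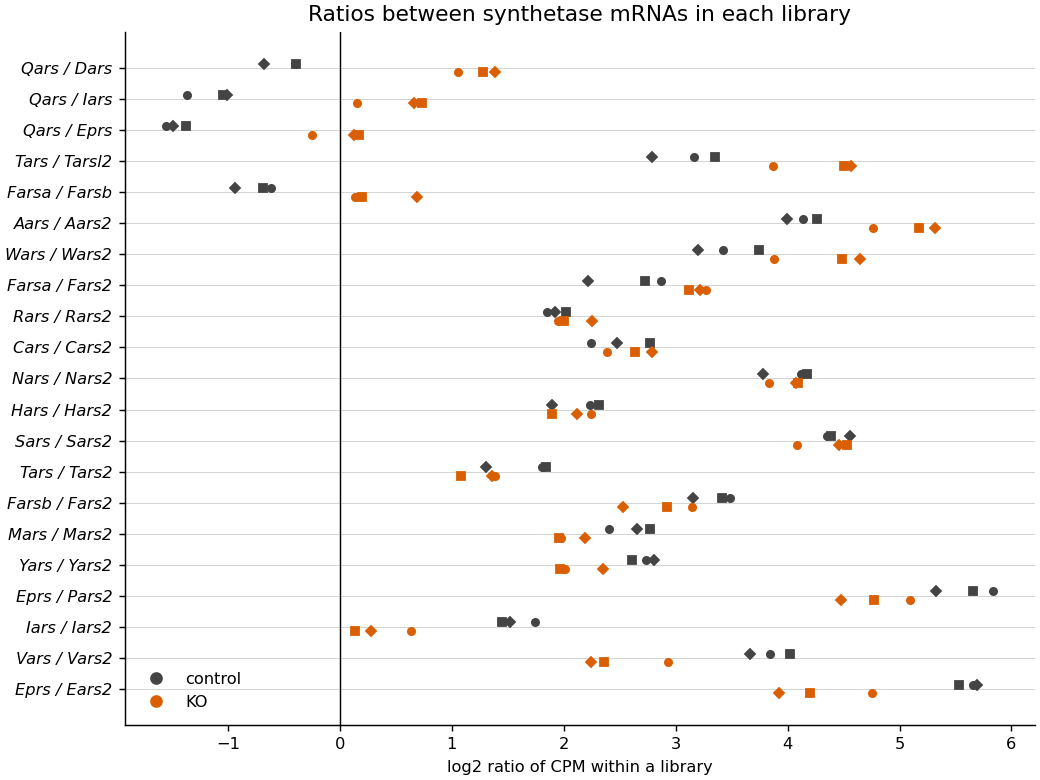
Log2 ratio of the CPM of one synthetase mRNA to that of another in each library, for 21 pairs, control in dark grey and KO in orange (circle, square and diamond for replicates 1, 2 and 3). The ratios of Qars to Dars and Farsa to Farsb move from below 0 in control to above 0 in KO. Those of Eprs to Ears2 and Vars to Vars2 move down, and those of Sars to Sars2 and Nars to Nars2 overlap. CPM is not divided by exon length, so the side of 0 does not rank the mRNAs by abundance.

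The called members also shared their highest KO library. Replicate 1 was the highest KO library in each of the 24 called genes, as in 68.3% of all genes called lower, and it also held the most Rtf1 among KO libraries (45.3 CPM against 30.4 and 26.2). KO replicate 3 held the least Rtf1 and also differed in sex from the other KO libraries. The part of residual Rtf1 or of sex in these values was not tested. Among cytosolic genes, 6 of 9 class I enzymes and 8 of 11 class II enzymes were called lower (Eprs holds 1 of each class). Both folds were thus represented, where 22.9% of all tested genes were called lower.

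Levels between genes were compared as CPM per kilobase of exons. In control the highest cytosolic members were Gars (149.7 ± 26.3), Nars (92.2 ± 10.7), Iars (76.6 ± 6.86) and Sars (70.2 ± 4.65; SD, n = 3), and the lowest was Tarsl2 (3.84 ± 0.0746). Gars and Nars were also first and second in KO (73.1 ± 5.62 and 50.7 ± 4.03), followed by Kars (48.3 ± 3.65), Hars (46.5 ± 3.61) and Rars (42.1 ± 3.49), which differed by less than the sum of their SD. Vars moved from rank 5 to rank 16 of 21 on this scale, and Qars from rank 17 to rank 6. Mitochondrial members other than Lars2 ran from 15.3 ± 1.63 (Iars2) to 1.58 ± 0.143 (Wars2) in control, below the cytosolic members other than Tarsl2. Exon length was summed over all annotated transcripts, so genes with long rarely used exons are set too low.

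Lars2, the mitochondrial leucine enzyme (GRCm38 chromosome 9, 123366927 to 123462666, plus strand), had the most variable counts of all members. It was at 1485, 457 and 57.2 CPM in control and 2332, 1564 and 5002 CPM in KO. Control replicates 1 and 3 alone lay further apart, as a ratio, than the group means. Every KO library was above every control library, but the log2 fold change of 2.16 (SE 0.911) was not called (adjusted p = 0.0811). Lars2 passed the threshold with the block (2.60, adjusted p = 0.04), without control replicate 1 (3.43, adjusted p = 0.0218), without control replicate 3 (1.58, adjusted p = 0.0326) and with no filter beyond any count (2.14, adjusted p = 0.0185). Lars2 alone held 10.2% to 93.2% of the counts of the 17 mitochondrial members.

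An exact stretch of 52 bases in a coding Lars2 transcript of GENCODE, bases 3278 to 3329 of 3894 and thus past the end of the coding part at base 2905, occurs also in Gm15564, a non-coding gene on chromosome 16. Stretches of 50 bases are shared with further genes, 19 of the 11217 of Lars2 with Gm47414, 16 with Gm36618, 6 each with 2410004P03Rik and Cd38 and 3 with Gm15564. Gm15564 alone is described here, and it was added after its counts were seen. Its level was 74.9, 17.2 and 1.64 CPM in control and 102, 60.1 and 256 CPM in KO. Within each group the order of libraries was that of Lars2, but control replicate 1 was above KO replicate 2, so the groups overlapped (log2 fold change 2.19, SE 1.02, adjusted p = 0.109). The ratio of Lars2 to Gm15564 counts stayed between 19.5 and 34.9 while both genes ranged widely. No exact match of 20 bases was found between Lars2 and the non-coding genes Gm42418, Gm26917 and AY036118, of which AY036118 was at 0 throughout. Gm42418 was at 10742, 7894 and 14278 CPM in control and 13219, 8528 and 18075 CPM in KO, with overlapping groups (0.27, adjusted p = 0.476). The part of the shared stretch in the Lars2 counts was not tested, and no change of Lars2 mRNA is read from them.

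**Figure D4:**
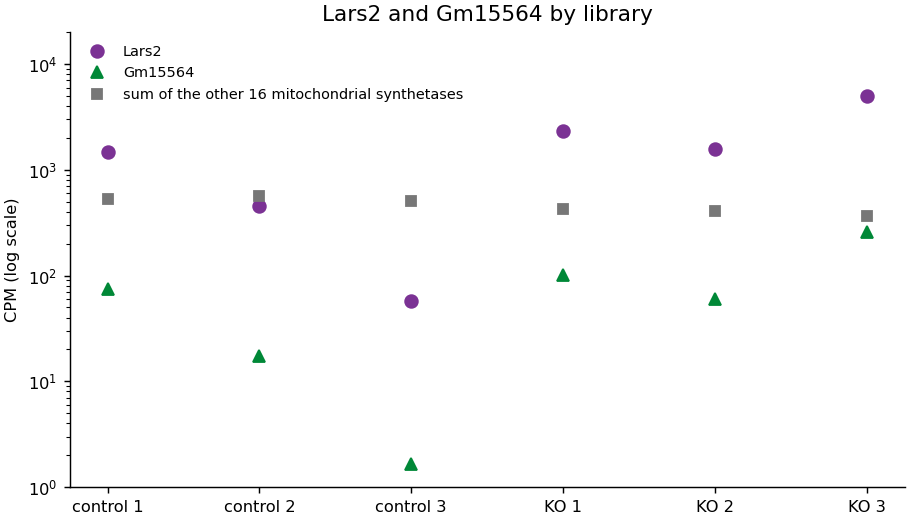
CPM on a log scale in each of the 6 libraries for Lars2 (circles), Gm15564 (triangles) and the sum of the other 16 mitochondrial synthetases (squares). Lars2 runs from 57.2 to 5002 CPM and Gm15564 from 1.64 to 256 CPM, both lowest in control replicate 3 and highest in KO replicate 3, while the sum of the other genes stays between 364 and 570.4 CPM.

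Other genes that make, use or sense charged tRNA were taken from lists by function. Of 48 names, 46 were in the table and all 46 were tested; 22 were called lower and 2 higher, with a median log2 fold change of −0.40, where 22.9% of all tested genes were called lower and 23.2% higher. The same background applies to each list. The charging of mitochondrial glutamine tRNA needs the amidotransferase of Qrsl1, Gatb and Gatc. Qrsl1 was lower (−0.54, adjusted p = 0.0385), Gatb was not called (−0.49, adjusted p = 0.105) but was with the replicate block (−0.51, adjusted p = 0.0309), without control replicate 3 (−0.67, adjusted p = 0.0287) and without KO replicate 1 (−0.69, adjusted p = 0.0456), and Gatc was higher (0.38, adjusted p = 0.0421), a call lost whichever library was left out. Mtfmt, which formylates the initiator methionine tRNA of mitochondria, was not called (0.12, adjusted p = 0.459).

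In the list of tRNA end-processing, export and proofreading, 4 of 9 genes were lower and 1 higher (22.9% and 23.2% of all tested genes). Xpot, the exporter that carries tRNA out of the nucleus, was at 220.2, 246 and 198 CPM in control and 121, 113 and 101 CPM in KO (log2 fold change −0.99, SE 0.126, adjusted p = 0.000616). Dtd1, which removes wrongly attached D-amino acids from tRNA, was at 26.7, 30.7 and 27.5 CPM in control and 12.5, 10.4 and 9.46 CPM in KO (−1.39, SE 0.156, adjusted p = 0.000369). For both genes the groups were well apart. Elac2, which trims the 3′ end of tRNA precursors, was lower (−0.50, adjusted p = 0.022), while its relative Elac1 was higher (0.59, adjusted p = 0.0135). The CCA-adding enzyme Trnt1 was not called (0.025, adjusted p = 0.882).

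Of the 6 genes of selenocysteine synthesis and use, 5 were lower, against 22.9% of all tested genes. They were Pstk and Sepsecs, which convert serine on its tRNA, Sephs1 and Sephs2, and the elongation factor Eefsec, with log2 fold changes from −0.99 (Eefsec, adjusted p = 0.00203) to −0.43 (Sephs2, adjusted p = 0.0471). Among 9 elongation factors that bring charged tRNA to the ribosome or move it there, Eef2 (−0.46, adjusted p = 0.0289) and the mitochondrial Tsfm (−0.73, adjusted p = 0.0101) were lower, a share near the background of 22.9% and thus no result about the list. Eef1a1, the main carrier of charged tRNA, was not called (−0.38, adjusted p = 0.109), nor was Tufm, its mitochondrial counterpart (−0.16, adjusted p = 0.383). Eef1g and Gfm1 were called with the replicate block (−0.39 and −0.37, adjusted p = 0.0258 and 0.0384).

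In the list of tRNA sensing through GCN2 and ATF4, 8 of 15 genes were lower and none higher (22.9% and 23.2% of all tested genes). Atf4 itself was at 396, 455 and 309 CPM in control and 161, 133 and 138 CPM in KO (log2 fold change −1.43, SE 0.163, adjusted p = 0.000401). Its known targets Asns, which makes asparagine, Trib3 and Chac1 had larger decreases than any synthetase, with log2 fold changes of −2.44, −1.86 and −3.36 (adjusted p = 0.000116, 0.00012 and 0.000334). Asns was at 166, 175 and 151 CPM in control and 40.6, 25.6 and 24.4 CPM in KO, again highest in KO replicate 1 within its group. Not all members of the list followed: Ddit3 (−0.31, adjusted p = 0.22) and Cebpb (0.19, adjusted p = 0.495) were not called, and the kinase gene Eif2ak4 (GCN2) fell little (−0.34, adjusted p = 0.0371). The calls of Qrsl1, Elac2, Sephs2, Eef2, Ppp1r15a and Eif2ak4 were each lost in 4 fits without a library, that of Pstk in 3 and those of Elac1 and Sephs1 in 2, while those of Atf4, Asns, Trib3, Chac1, Xpot and Dtd1 were kept in all alternatives.

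**Figure D5:**
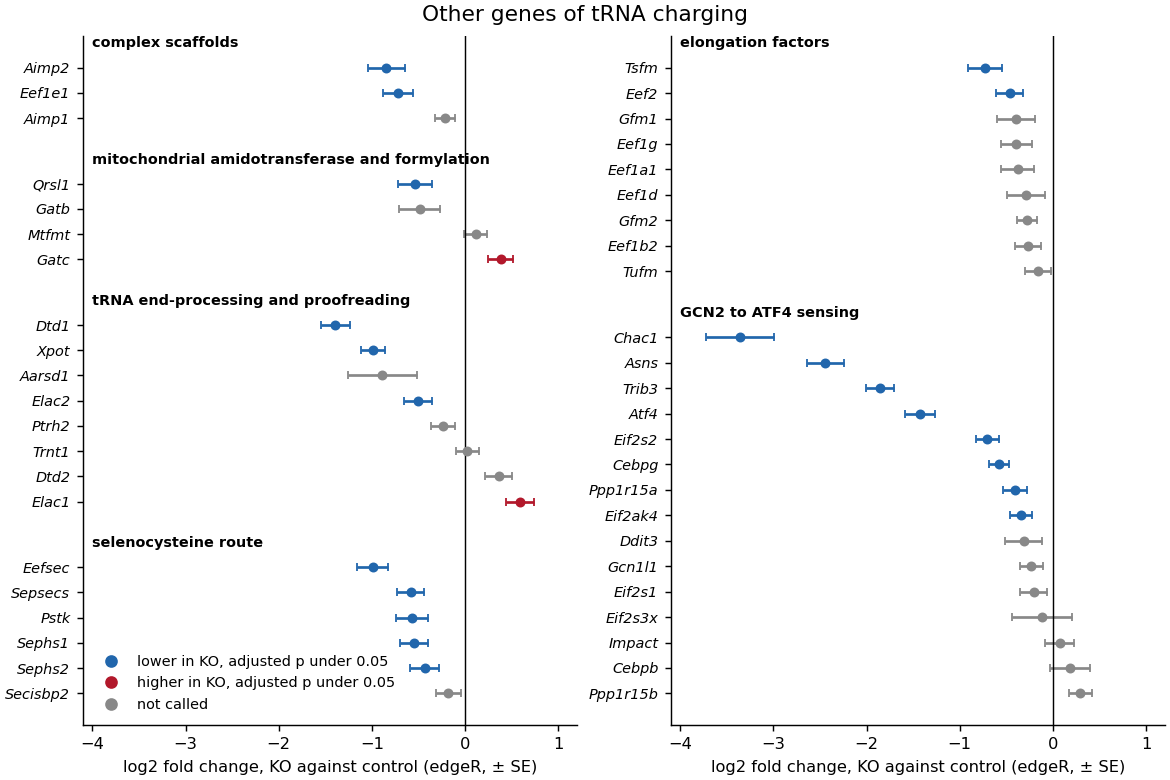
Log2 fold change of KO against control with its standard error for 45 other genes of tRNA charging, grouped by list; blue marks genes called lower, red genes called higher and grey genes not called. Chac1, Asns, Trib3 and Atf4 lie farthest to the left, and only Gatc and Elac1 are red.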

How the data were processed

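RNA of 3 control and 3 KO Th17 cultures was analysed from 1 table. The values the authors deposited are whole-number counts per gene symbol. The submitters' processing notes name STAR, featureCounts, DESeq2 and the build mm10, with no settings. The annotation and whether counting used strand are not given in the sources used here. There were 0 columns without a sample.

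Counts were tested with edgeR 4.0.16 in R 4.3.3 (quasi-likelihood test, TMM factors, filterByExpr by group, no covariate), fitted on all genes, with Benjamini-Hochberg adjustment over all 14268 tested genes and calls at an adjusted p under 0.05. The kept genes held 99.9% of counts. The standard error is the absolute log2 fold change over the square root of F. The biological coefficient of variation was 0.212, and PCR reads without molecular identifiers are not independent molecules. The script was tested on simulated data. Alternatives were other scalings and filters, DESeq2 1.42.0, a replicate block, and leaving out libraries.

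The members and lists were chosen with earlier results of these data known. Members described with all 6 values are those of the 5 largest decreases per compartment among called genes that are reported, Wars, Tarsl2, Gars, Kars and Lars2, and any other member may be named; Gm15564 and further members were added after their values were seen. Both groups carry numbers 1, 2 and 3 in the titles. Deviations from the group means of equal-numbered libraries correlated at 0.27, 0.13 and 0.379, each over 0.1, which met the rule for a replicate block as an alternative. Control 2 with KO 1 correlated at 0.204, above pair 2, so the data do not single out pairs 1 and 2. Pair 3 had the highest correlation and differed in sex from the rest. Control 3 correlated at −0.39 with KO 1 and at −0.018 with KO 2. The fit reported and the ratio tests were unpaired. The numbers are from the titles, which leave their meaning unstated.

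Positions, exon lengths, overlaps and shared 50-base stretches are from GENCODE release M21 (GRCm38, the assembly of mm10). Promoter sequences are RefSeq's (GRCm38.p6), matched by symbol, or by synonym at the same locus; members without a window include Cars, Hars, Hars2, Lars, Nars, Pars2, Rars, Vars and Wars. A mitochondrial member and a companion gene are part of the counts, sums and medians but are not reported here by themselves.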

Additional observations from a re-analysis of the deposited data

How the results depend on the processing

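Of the 24 members called lower, each kept a negative value under all 15 alternatives, and 18 (13 cytosolic and 5 mitochondrial) stayed called under each; the others were Aars, Tars, Fars2, Mars2, Wars2 and Yars2. The count of cytosolic members called lower was 13 to 17 in the fits that left out 1 library, and that of members called higher 0 to 1. That higher call was Qars, and the count was also 1 with upper-quartile factors, library size as the only scaling, a mean count of at least 10 and the replicate block. Mitochondrial members called lower numbered 5 (without KO replicate 2) to 10. When 1 library was left out, lower calls over all genes ran from 2170 (without KO replicate 2, against 3269) to 3700 (without control replicate 3) and higher calls from 2290 to 3350. With the replicate block they were 3771 and 3857. Companion genes called lower numbered 14 (without KO replicate 2 or KO replicate 3) to 28. Those called higher numbered 0 to 1 when 1 library was left out, 1 with upper-quartile factors, any count, the DESeq2 test and the libraries numbered 1 and 2, and 4 with library size only. With the replicate block they were 3, and 25 were lower; besides the calls given above the block added Ppp1r15b (0.30, adjusted p = 0.0336) and took none away from members. Signs reversed only for genes that were not called. Farsa was 0.042 with library size only and ran from −0.25 (without control replicate 3) to 0.039 (without KO replicate 2) when 1 library was left out, with 0.038 without control replicate 2. Trnt1 was −0.00052 with the DESeq2 test, −0.013 with the libraries numbered 1 and 2, and between −0.11 and 0.11 when 1 library was left out. Eif2s3x ran from −0.43 to 0.15 and Impact from −0.064 to 0.14 in those fits. The cause of these changes was not tested. Members of about 10 CPM, such as Wars2, Ears2 and Pars2, rest on 72 to 551 counts per library, and Wars2 had the largest SE (0.279) of the members other than Lars2 (0.911).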
